A study of Mus musculus with 12 samples.

Results

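Actins are the proteins of which thin filaments and the cytoskeleton are built. The genes followed on the arrays were Acta1 (skeletal muscle alpha actin), Actc1 (cardiac alpha actin), Acta2 (aortic smooth muscle alpha actin), Actg2 (enteric smooth muscle gamma actin) and Actb (cytoplasmic beta actin). These are 5 of 19013 gene symbols on the array. Every probe assigned to one of them was taken, which gave 15 of 45281 probe IDs. IDs that carried the same value on all 12 arrays cannot be told apart and were merged, which left 6 of 30854 distinct features. Acta2 had a bright and a dim feature, and each of the other genes had 1. The bright Acta2 value was shared by 5 IDs, the Actb value by 5 and the Actc1 value by 2, while Acta1, Actg2 and the dim Acta2 feature had 1 ID each. Probe sequences were not analysed here, so signal shared between near-identical actin transcripts cannot be separated.

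The hearts came from 3-week-old FVB/N females, 1 whole heart per array, in 4 groups of 3. Transgenic mice were hemizygous for a nuclear dominant negative CELF protein, a repressor of the CELF family of splicing regulators, driven by the mouse α-myosin heavy chain promoter and so made in heart muscle after birth. The MHC-CELF∆-574 mice formed the mild line and the MHC-CELF∆-10 mice, with higher levels of the dominant negative protein, the severe line. The controls, without the transgene, were 3 wild type littermates from each family, and they were pooled to 6 wild type hearts unless stated otherwise. Each degree of severity is represented by a single line, so that line, litter and anything else that the 6 arrays of a family shared cannot be told apart where the lines are set against each other. No batch of the arrays is given in the labels.

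Striated muscle uses skeletal and cardiac alpha actin for the thin filaments of the sarcomere, along which myosin pulls. In the rodent ventricle both are made before and around birth, cardiac alpha actin prevails in the adult, and a renewed rise of skeletal alpha actin is a well-known mark of the hypertrophied heart. Smooth muscle alpha actin belongs to the vessel wall, to activated fibroblasts and to the embryonic heart muscle cell, while enteric gamma actin marks visceral smooth muscle. Beta actin forms the cytoskeleton of nearly every cell. Transcription of muscle actin genes depends on serum response factor (SRF), which binds a short element called the CArG box.

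The deposited raw value of a feature is a bead intensity in arbitrary units. From these, log2 signals were derived after background correction and quantile normalization, which gave every array a median of 6.28. Before normalization the array medians ran from 106 to 110 in the mild line, from 110 to 117 in its littermates, from 120 to 123 in the severe line and from 106 to 113 in its littermates. Cardiomyocyte markers had mean log2 signals from 10.1 to 15.2 for 8 measured genes, all above the array median. A change counted as passing when its adjusted p from limma was under 0.05. By that rule 500 features were higher and 595 lower in the mild line than in wild type, and 539 were higher and 480 lower in the severe line. Median scaling in place of quantile normalization turned the latter split to 270 higher and 857 lower.

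The 250 bases upstream of the start of Acta1, Actc1 and Acta2 are shown because the 3 genes behaved differently on the arrays while each carries CArG-like sequences there. They are RefSeq sequences of GRCm38.p6, read on the minus strand, of the reference strain and not of FVB/N. Acta1 lies at chr8:123891758-123894775 with its window at chr8:123894776-123895025, Actc1 at chr2:114047282-114052875 with its window at chr2:114052876-114053125, and Acta2 at chr19:34240336-34255585 with its window at chr19:34255374-34255623. The Acta2 window precedes a RefSeq start inside the annotated span of the gene. Capitals mark CArG boxes and CArG boxes with 1 other letter in the core. No window was matched for Actg2 (chr6:83512909-83536251) and Actb (chr5:142903115-142907976).
Acta1: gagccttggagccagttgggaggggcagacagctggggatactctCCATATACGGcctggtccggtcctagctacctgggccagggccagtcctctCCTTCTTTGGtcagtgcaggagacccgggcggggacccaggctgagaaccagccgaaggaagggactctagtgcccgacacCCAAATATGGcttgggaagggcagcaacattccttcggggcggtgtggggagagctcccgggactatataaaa
Actc1: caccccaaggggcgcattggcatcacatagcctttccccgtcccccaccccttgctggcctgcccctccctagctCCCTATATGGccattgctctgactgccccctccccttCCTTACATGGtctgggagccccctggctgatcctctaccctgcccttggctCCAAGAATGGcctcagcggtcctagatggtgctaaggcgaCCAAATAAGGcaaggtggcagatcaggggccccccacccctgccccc
Acta2: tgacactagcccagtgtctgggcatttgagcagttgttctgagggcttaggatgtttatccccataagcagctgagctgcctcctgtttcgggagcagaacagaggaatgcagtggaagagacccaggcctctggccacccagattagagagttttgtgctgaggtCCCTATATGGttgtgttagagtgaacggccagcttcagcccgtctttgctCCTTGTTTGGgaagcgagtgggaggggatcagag

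Acta1 held 1 CArG box, CCAAATATGG, at 73 to 64 bases before the start, and 2 sequences that differ from the motif by 1 letter in the core, CCATATACGG and CCTTCTTTGG. Actc1 also held 1, CCAAATAAGG, at 47 to 38 bases before the start, with 3 sequences that differ by 1 letter. In Acta2 the search found no full match and 2 with 1 other letter, CCCTATATGG and CCTTGTTTGG. CCCTATATGG was thus present in both Acta2 and Actc1. Over 32851 promoter windows of the same length and on either strand, 1.47% held a CArG box and 7.24% a sequence with 1 other letter. The letters TATAAA were found in the Acta1 window only among the 3, at 7 to 2 bases before the start. They were on 1 strand or the other (TATAAA or TTTATA) in 12.4% of windows. Positions are counted from the annotated start, and where transcription begins was not measured. Each window ends at that start, so letters beyond it were not searched. The element CATTCC, bound by TEAD factors, was found on 1 strand or the other (CATTCC or GGAATG) in the Acta1 and Acta2 windows and in 12.6% of all windows. These are matches of letters, not measured binding.

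Skeletal alpha actin, Acta1, was up-regulated in both lines. Mild line hearts had log2 signals of 15.04, 14.95 and 14.84. Those of severe line hearts were 14.82, 14.63 and 14.63. The wild type littermates had 13.69, 13.50 and 13.53 in the mild line's family and 13.66, 13.40 and 13.33 in the severe line's. Every transgenic heart lay above every wild type heart. In raw intensity the feature had 9803 to 15018 units in the 6 wild type hearts, 23407 to 25785 in the severe line and 27690 to 32274 in the mild line. The brightest features of the arrays had 39798 to 48107 units, so Acta1 stayed below the top of the scale. Against wild type, Acta1 was 2.68-fold higher in the mild line (log2 fold change 1.42, standard error 0.084, 95% confidence interval 1.24 to 1.60, limma adjusted p = 3.6e-09). In the severe line it was 2.26-fold higher (log2 fold change 1.17, standard error 0.084, interval 1.0 to 1.35, adjusted p = 7.08e-08). By p it ranked 16 (mild line) and 20 (severe line) among 30854 features. Against its own littermates each line gave nearly the same value, 1.37 in the mild line (adjusted p = 8.71e-08) and 1.23 in the severe line (adjusted p = 5.03e-07). Acta1 is a gene the study picked from these arrays. In whole hearts, more cells that make a transcript and more transcript per cell cannot be told apart.

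The order of the group means for Acta1 was mild line (14.94 ± 0.10, SD, n = 3), severe line (14.69 ± 0.11), littermates of the mild line (13.57 ± 0.10) and littermates of the severe line (13.47 ± 0.17). The step from transgenic to wild type passed in both lines. The mild and severe lines just failed to overlap, at 14.84 against 14.82 for the nearest hearts, and their difference of 0.25 (interval 0.042 to 0.45, unadjusted p = 0.0206) was larger than the SD of either line and did not pass after adjustment over all features (adjusted p = 0.283). The littermates of the lines overlapped and differed by 0.11 (adjusted p = 0.771).

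**Figure D1:**
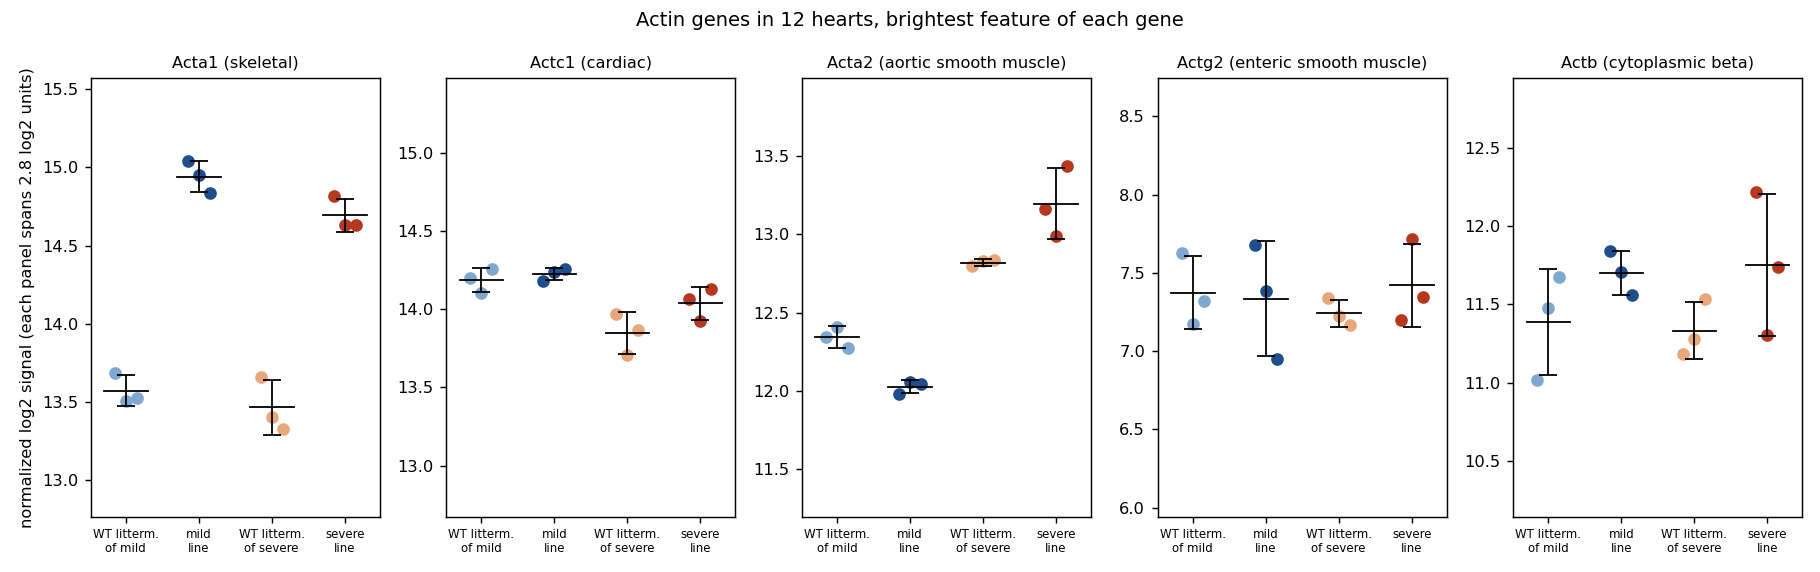
Normalized log2 signal of the brightest feature of each actin gene (y axis, log2 units, all panels with the same span) in each of 12 hearts, by group on the x axis. Points are hearts, bars are the mean and SD of 3. Acta1 lies between 14.63 and 15.04 in transgenic hearts and between 13.33 and 13.69 in wild type hearts, while Acta2 is lowest in the mild line (11.98 to 12.06) and highest in the severe line (12.99 to 13.44).

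Cardiac alpha actin, Actc1, which makes up most of the thin filament actin of the adult ventricle, passed in neither line. The mild line had log2 signals of 14.18, 14.24 and 14.26 and its littermates 14.20, 14.10 and 14.26. The severe line had 14.06, 13.92 and 14.13 and its littermates 13.97, 13.70 and 13.87. Each line overlapped its own littermates, and the mild line family as a whole lay above the severe line's with 1 pair of hearts, 14.10 and 14.13, in reversed order. Against 6 wild type hearts the change was 0.21 in the mild line (interval -0.0013 to 0.42, adjusted p = 0.410) and 0.022 in the severe line (interval -0.19 to 0.23, adjusted p = 0.962). Changes of 2-fold in either direction thus lay outside both intervals. The sign of the severe line's value depended on the setting, from -0.23 to 0.19 over 24 alternative settings, none of which passed. The pooled controls hold a difference of 0.34 between the wild type families, and the order of the lines turned with littermates as controls. Against own littermates the mild line had 0.040 (interval -0.14 to 0.22, limma adjusted p = 0.956). The severe line had 0.19 (interval 0.013 to 0.37, unadjusted p = 0.0370 and adjusted p = 0.350 from limma). In raw intensity the mild line family had 18735 to 21414 units and the severe line family 14050 to 16833, without overlap.

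Smooth muscle alpha actin, Acta2, was the member that moved in opposite directions. In mild line hearts its bright feature had log2 signals of 11.98, 12.06 and 12.05, against 12.35, 12.41 and 12.27 in their littermates. The severe line had 13.16, 12.99 and 13.44, and its littermates had 12.80, 12.83 and 12.84. The 4 groups did not overlap. In order from low to high they were the mild line (12.03 ± 0.042, SD, n = 3), its littermates (12.34 ± 0.070), the littermates of the severe line (12.82 ± 0.020) and the severe line (13.20 ± 0.23). The mild line thus lay below all wild type hearts and the severe line above all of them. Of all features, 3.92% lay below all wild type hearts in the mild line and 3.59% above them in the severe line. The wild type hearts themselves fell into separate sets by family, from 12.27 to 12.41 and from 12.80 to 12.84.

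Against 6 wild type hearts the fall in the mild line was -0.55 (standard error 0.13, interval -0.82 to -0.29, limma adjusted p = 0.0159) and the rise in the severe line 0.62 (standard error 0.13, interval 0.35 to 0.88, adjusted p = 0.00813). These are 0.68-fold and 1.53-fold, so neither reached the 2-fold limit of the study's rule. Against own littermates the values were smaller, at -0.32 in the mild line (interval -0.51 to -0.12, adjusted p = 0.111) and 0.38 in severe line hearts (interval 0.18 to 0.57, adjusted p = 0.0426). The fall in the mild line passed with pooled controls and not with littermates. It also did not pass without any 1 of the 3 mild line hearts (-0.57 to -0.53, adjusted p = 0.0652 to 0.0832) or with a background offset of 16 (-0.56, adjusted p = 0.0725). The rise in the severe line did not pass without severe line replicate 3, the heart with the highest Acta2 (0.50, adjusted p = 0.0802), nor with median scaling (0.45, adjusted p = 0.0546). The lines differed from each other by -1.17 (interval -1.48 to -0.86, adjusted p = 1.73e-04), a factor of 0.44 in the mild relative to the severe line, where 0.771% of features passed with a lower value in the mild line. This call held in each of 23 alternative settings.

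The dim Acta2 feature had log2 signals from 5.80 to 6.12 on all arrays, below the array median, at percentiles 2.09 to 30.5 of the features of its array. Its changes ran from -0.040 to -0.0078 over all 7 comparisons, with adjusted p from 0.908 to 0.989. Where both Acta2 features were averaged, the changes were -0.30 (mild line) and 0.30 (severe line).

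Enteric gamma actin, Actg2, was the dimmest member with a signal above the array median, at percentiles 73.2 to 81.9 of its array. Mild line hearts had log2 signals of 7.68, 7.38 and 6.95, and severe line hearts had 7.20, 7.71 and 7.35. Among wild type hearts the signals were 7.63, 7.17 and 7.32 in the mild line's family and 7.34, 7.22 and 7.17 in the severe line's. The groups overlapped throughout. The change was 0.028 in the mild line (interval -0.26 to 0.32, adjusted p = 0.969) and 0.11 in the severe line (interval -0.17 to 0.40, adjusted p = 0.809). The sign in both lines depended on which heart was left out, and no alternative setting passed.

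Beta actin, Actb, showed higher means in both lines without passing. Mild line hearts had log2 signals of 11.84, 11.71 and 11.56, and severe line hearts 12.21, 11.31 and 11.74. Wild type hearts had 11.01, 11.48 and 11.67 in the mild line's family and 11.18, 11.28 and 11.53 in the severe line's. Both lines overlapped the wild type hearts, and the severe line held both the highest Actb value of the 12 hearts and a value within the wild type range. The change was 0.34 in the mild line (standard error 0.16, interval 0.014 to 0.67, unadjusted p = 0.0417 and adjusted p = 0.371 from limma) and 0.39 in the severe line (standard error 0.16, interval 0.065 to 0.72, unadjusted p = 0.0215 and adjusted p = 0.241). Without severe line replicate 2, its lowest heart, the severe line's value was 0.62 and passed (adjusted p = 0.0317), and without replicate 1, its highest heart, it was 0.16 (adjusted p = 0.784). Actg1, the other cytoplasmic actin, was looked for but had no feature assigned to that symbol alone, so it was not measured.

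By gene, 1 of 5 members was higher and 1 lower in the mild line, and 2 of 5 were higher in the severe line. Of all features, 3.55% passed in the mild line (1.62% higher, 1.93% lower) and 3.3% in the severe line (1.75% higher, 1.56% lower). Acta1 and the bright Acta2 feature made up these counts, and both also lay outside the range of the wild type hearts in each line, as did 7.52% of features in the mild and 7.21% in the severe line. By the study's rule of a 2-fold change with an adjusted p under 0.05 or an unadjusted p under 0.001, Acta1 was up-regulated in both lines, where 0.126% of features in the mild and 0.12% in the severe line were so. With own littermates as controls, Acta1 passed in the mild line, and Acta1 and Acta2 in the severe line, against 2.34% and 2.32% of features, and both genes lay outside the range of their littermates in each line, as did 16.8% of features in the mild and 15.6% in the severe line. The median change over all features lay between -0.0013 and 0.0013 in each of the 7 comparisons.

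**Figure D2:**
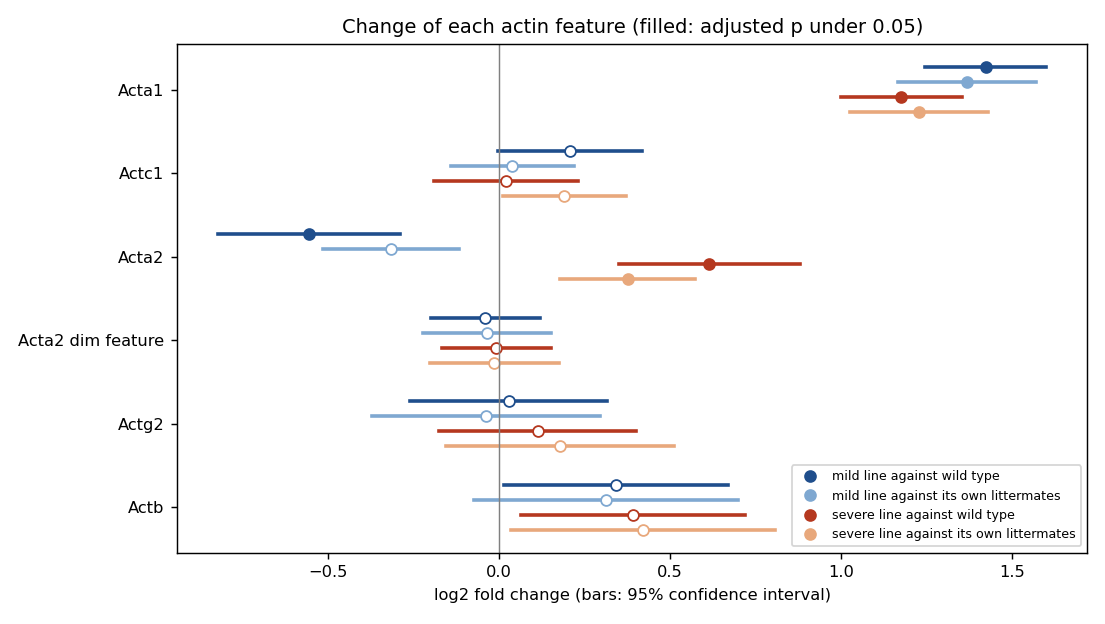
Log2 fold change (x axis) of each actin feature (y axis) in each line against 6 wild type hearts (dark) and against its own 3 littermates (light). Bars are 95% confidence intervals and filled points have an adjusted p under 0.05. Acta1 lies from 1.17 to 1.42 in every comparison, the bright Acta2 feature lies on opposite sides of 0 in the lines, and the intervals of Actg2 and the dim Acta2 feature span 0.

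To ask whether the lines differed beyond their families, the change from own littermates in the severe line was subtracted from that in the mild line. For Acta2 this difference was -0.69 (standard error 0.13, interval -0.97 to -0.41, limma adjusted p = 0.0295), and of all features 0.266% passed, 0.207% with a negative sign. The call was not stable, since 9 of the 12 fits that each left out 1 heart lost it (adjusted p = 0.0048 to 0.103 over all 12 fits), as did a smaller background offset (adjusted p = 0.262) and median scaling (adjusted p = 0.223). The sign held in each of 22 settings, from -0.80 to -0.36. For Acta1 the difference was 0.14 (interval -0.14 to 0.42, adjusted p = 0.898), so a difference between the lines of more than 0.42 log2 units in the Acta1 rise lay outside the interval. Actc1 had -0.15 (interval -0.40 to 0.10), Actg2 -0.22 (interval -0.69 to 0.26) and Actb -0.11 (interval -0.65 to 0.44), and none of these passed.

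Directly between the transgenic hearts, 1.37% of features passed, 184 higher and 238 lower in the mild line, and of the 5 genes Acta2 did. The ranges of the lines did not overlap for 18.1% of features, and among the members for Acta1 and Actc1, higher in the mild line, and for Acta2. Median scaling gave 234 higher and 112 lower. Among wild type hearts of the families 0.0875% passed, 19 higher and 8 lower in the mild line's littermates, or 14 and 3 with median scaling, while 9.97% had an unadjusted p under 0.05. None of the 5 actin genes passed there, although 2 of them, Actc1 and Acta2, had an unadjusted p under 0.05 and did not overlap between the families, as held for 15.1% of all features. Wild type Acta2 was lower in the mild line's family by -0.48 (standard error 0.094, unadjusted p = 8.92e-05, adjusted p = 0.0640), and wild type Actc1 was higher there by 0.34 (standard error 0.085, unadjusted p = 9.00e-04, adjusted p = 0.142). The littermate difference in Acta2 had the same sign as the difference between the lines, and comparisons that use the pooled wild type hearts share those 6 controls.

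To compare the members within an array, each actin was set against Actc1 on the same array and the difference was given relative to its wild type mean. By this measure Acta1 was 1.21 log2 units above wild type in the mild line (range over hearts 1.08 to 1.35) and 1.15 in the severe line (1.0 to 1.25). The littermates had -0.12 (-0.23 to -0.015) in the mild line's family and 0.12 (-0.039 to 0.20) in the severe line's. The transgenic and wild type hearts remained apart. The unequal change of Acta1 and Actc1 was therefore present within each array.

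For Acta2 against Actc1, the mild line had -0.76 (-0.78 to -0.75), its littermates -0.41 (-0.55 to -0.25), the littermates of the severe line 0.41 (0.26 to 0.56) and the severe line 0.59 (0.50 to 0.74). The mild line lay apart from its littermates, whereas the severe line overlapped its own. Actb against Actc1 overlapped between all groups, with 0.13 (-0.042 to 0.31) in the mild line and 0.37 (0.038 to 0.81) in the severe line. Actg2 against Actc1 did so too, with -0.18 and 0.092.

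**Figure D3:**
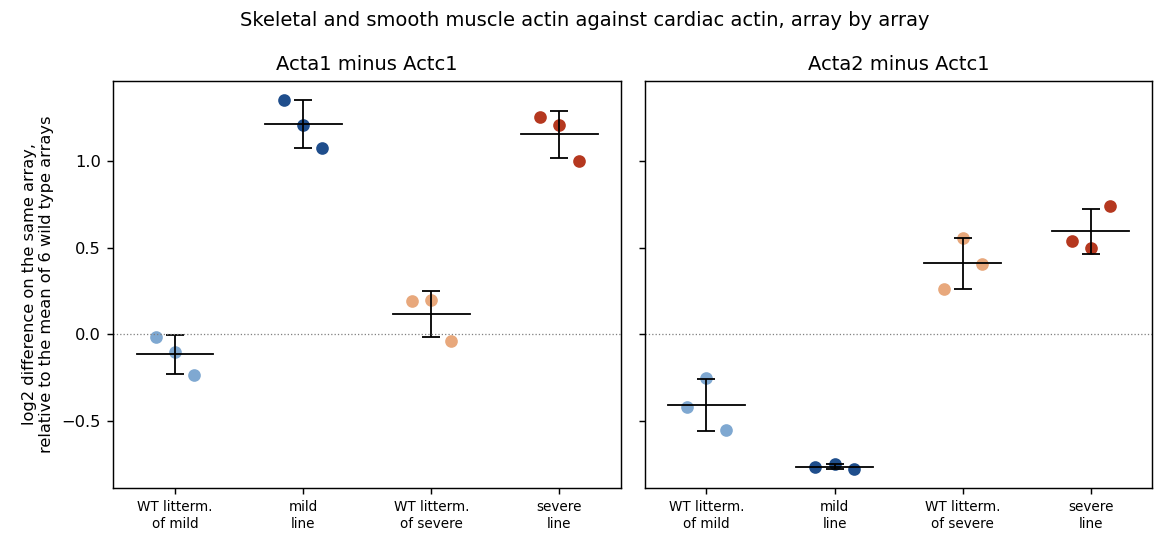
Log2 difference between Acta1 (left) or Acta2 (right) and Actc1 on the same array, relative to the mean of 6 wild type arrays (y axis, log2 units), by group on the x axis. Points are hearts, bars are the mean and SD of 3. Acta1 minus Actc1 is 1.0 or more in all 6 transgenic hearts and at most 0.20 in wild type hearts, and Acta2 minus Actc1 rises from the mild line at -0.76 to the severe line at 0.59 with the wild type families between them.

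The genes whose pattern over the 12 hearts lay closest to Acta1 were found among 11296 genes with a signal above the array median, by the root mean square difference of the log2 values relative to wild type. They were Col8a1 (0.23), which encodes a short-chain collagen, Tceal5 (0.23), Myl1 (0.24), a myosin light chain of fast skeletal muscle, Rcan1 (0.25), an inhibitor of calcineurin, and Klhl40 (0.25), a protein that stabilizes thin filament components in skeletal muscle. Acta1 itself differed from a flat profile by 0.93. In the mild line the changes were 1.19 for Col8a1, 1.08 for Tceal5, 1.42 for Myl1, 1.34 for Rcan1 and 1.17 for Klhl40. In the severe line Col8a1 had 1.43, Tceal5 1.09, Myl1 0.85, Rcan1 1.45 and Klhl40 0.95. The list is ordered by likeness to Acta1, so their changes in the same direction follow from the choice. Col8a1 and Rcan1 are also named by the study from these arrays, and for Rcan1 the study reported larger changes in both lines than its brightest feature gave here.

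For Acta2, with a difference of 0.46 from a flat profile, the closest was Ddah1 (0.16), an enzyme that breaks down inhibitors of nitric oxide synthase. Its change was -0.40 in the mild line (adjusted p = 0.124) and 0.61 in the severe line (adjusted p = 0.0109). Next came Igf2 (0.23), a fetal growth factor, with -0.37 and 0.25, Id2 (0.26), an inhibitor of basic helix-loop-helix factors, with -0.18 and 0.39, and Sdf2l1 (0.26), a protein of the endoplasmic reticulum, with -0.28 and 0.34. Igfbp5 (0.27), which binds insulin-like growth factors, had -0.39 and 0.25. Of these 5 genes Sdf2l1 passed in both lines (adjusted p = 0.0426 in the mild and 0.0124 in the severe line). None of the 5 was as far from wild type in the mild line as Acta2.

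**Figure D4:**
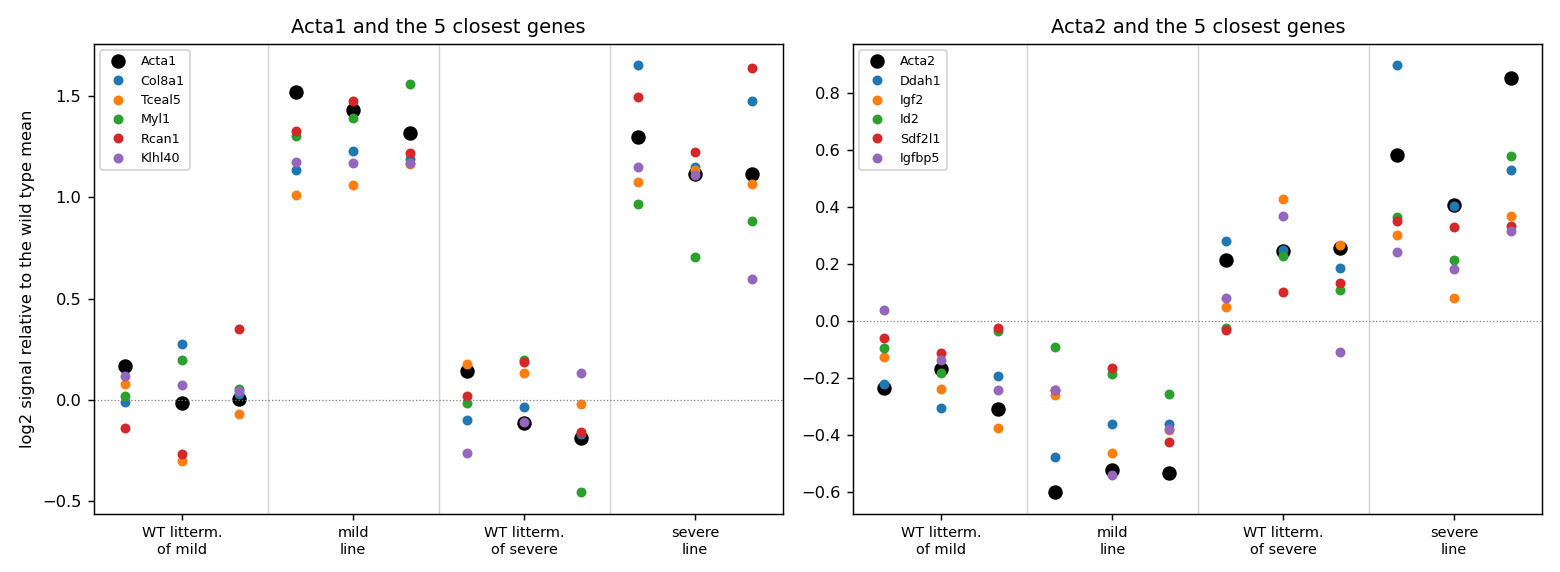
Log2 signal relative to the wild type mean (y axis, log2 units) of Acta1 (left) and Acta2 (right) in black and of the 5 closest genes in colour, in 12 hearts by group (x axis, 3 hearts each). The Acta1 panel shows transgenic hearts above wild type hearts for each of the 6 genes, and in the Acta2 panel Acta2 ranges from -0.60 in a mild line heart to 0.86 in a severe line heart.

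Genes around the actin filament were grouped by function. Of all features, 12.3% (mild line) and 13.5% (severe line) had an unadjusted p under 0.05, against which the unadjusted counts of the lists can be read. For genes that passed, the shares of all features were 1.62% higher and 1.93% lower in the mild line. In the severe line they were 1.75% higher and 1.56% lower. Among 12 measured other actins and actin-related proteins, which include Actr3 of the Arp2/3 nucleator, none passed in either line with limma, with 0 at an unadjusted p under 0.05 in the mild and 1 in the severe line, and the median change was -0.029 in the mild and -0.010 in the severe line. Of these 12 genes, 7 had a mean signal at or below the array median, which limits what their values can show. The 17 measured genes of actin folding and maturation, chaperonin subunits, prefoldins and the actin methyltransferase Setd3 among them, also held no gene that passed, with 4 higher and 1 lower at an unadjusted p under 0.05 in the mild line, 3 lower in the severe line, and medians of 0.070 and -0.010.

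Of 22 genes of monomer binding and filament turnover, 5 were up-regulated and 1 was down-regulated in the mild line (median 0.050), and 3 were up-regulated in the severe line (median 0.079). At an unadjusted p under 0.05 (limma), 8 were higher and 1 lower in the mild line, and 7 higher and 1 lower in the severe line. Cfl2, the muscle cofilin that severs filaments, rose in both lines, by 0.42 (mild, adjusted p = 9.56e-04) and 0.37 (severe, adjusted p = 0.00391). Wdr1, a partner of cofilin, rose by 0.31 (adjusted p = 0.0412) and 0.56 (adjusted p = 4.13e-04). Twf2, a monomer-binding twinfilin, rose in the mild line by 0.54 (adjusted p = 0.00137), with 0.25 in the severe line. Dstn, destrin, fell in the mild line by 0.51 (adjusted p = 0.00137) and had -0.022 in the severe line, and it was the gene of this list that differed between the lines (-0.48, adjusted p = 0.0182).

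Of 21 measured genes of thin filament capping, elongation and length, 3 rose and 2 fell in the mild line (median -0.016), and 2 rose and 1 fell in the severe line (median -0.0037). At an unadjusted p under 0.05 (limma), 3 were higher and 3 lower in the mild line, and 2 higher and 1 lower in the severe line. Xirp2, an actin-binding protein of the intercalated disc, rose by 1.21 in mild line hearts (adjusted p = 9.42e-07) and 0.58 in severe line hearts (adjusted p = 0.00371), with a difference between them that passed (0.62, adjusted p = 0.0144). Of the tropomodulins, which cap the pointed end, Tmod4 fell in both lines, by 0.51 (mild, adjusted p = 0.00138) and 0.68 (severe, adjusted p = 1.07e-04). Tmod1 fell in mild line hearts by 0.33 (adjusted p = 0.0238), beside -0.13 in severe line hearts. Nrap, which takes part in myofibril assembly, rose by 0.40 in the mild line (adjusted p = 0.0458), as did Lmod3, a leiomodin that promotes filament growth, by 0.35 (adjusted p = 0.0283).

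Of 26 measured genes of crosslinking and anchoring, 4 rose in the mild line (median 0.10) and 6 in the severe line (median 0.12), and none fell (1 and 0 at an unadjusted p under 0.05, limma). By the same unadjusted limit 9 were higher in the mild and 10 in the severe line. Pdlim1, which binds alpha-actinin, rose by 1.24 in the mild (adjusted p = 3.02e-08) and 0.76 in the severe line (adjusted p = 2.75e-05). Abra, a Z-disc protein that promotes SRF-dependent transcription, rose by 1.24 in the mild line (adjusted p = 0.0128) and had 0.59 in the severe line (adjusted p = 0.350). Flnc, a muscle filamin, rose in both (0.61, adjusted p = 0.00311, and 0.54, adjusted p = 0.0108). Zyx, zyxin of focal adhesions, rose in severe line hearts by 0.62 (adjusted p = 0.00130), beside 0.085 in mild line hearts, and that difference passed (-0.54, adjusted p = 0.0276).

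Of 16 measured transcription factors and cofactors tied to actin, 1 rose and 2 fell in each line, with medians of 0.013 and -0.047. At an unadjusted p under 0.05 (limma), 2 were higher and 4 lower in the mild line, and 1 higher and 2 lower in the severe line. The 3 that passed were Fhl1, Fhl2 and Hopx, and these and Srf were picked by the study on these arrays, so that their directions are not independent evidence. Hopx, a homeodomain protein that restrains SRF, fell by 3.10 in the mild (adjusted p = 1.24e-13) and 0.52 in the severe line (adjusted p = 0.00251). Fhl2, a LIM protein that does so too, fell by 1.67 (adjusted p = 3.14e-11) and 0.70 (adjusted p = 8.85e-06). Srf had 0.20 in the mild line (adjusted p = 0.347) and 0.15 in the severe line (adjusted p = 0.542). Fhl1, a LIM protein of the sarcomere, rose by 0.46 (adjusted p = 0.0160) and 1.02 (adjusted p = 8.79e-06). In the difference between the lines with littermates taken out, Hopx had -2.77 (adjusted p = 3.82e-09) and Fhl2 -0.89 (adjusted p = 8.04e-04), beside 0.14 for Acta1 (adjusted p = 0.898) and -0.69 for Acta2.

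**Figure D5:**
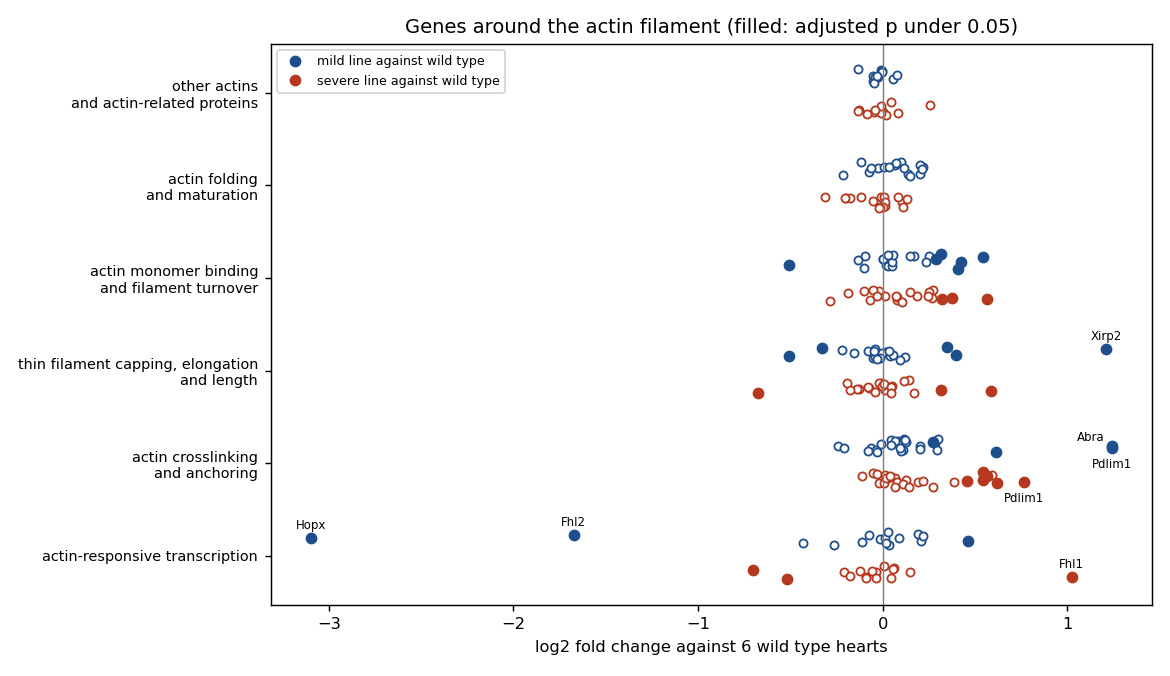
Log2 fold change against 6 wild type hearts (x axis) of genes around the actin filament in 6 lists (y axis), in the mild line (blue) and the severe line (red). Each point is the brightest feature of a gene, filled where the adjusted p is under 0.05. Other actins, of which 7 of 12 had a mean signal at or below the array median, and folding genes lie near 0. Xirp2, Pdlim1 and Abra lie above 1.2 and Hopx at -3.10 in the mild line.

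Markers of other cells that make actins were measured beside them, with counts to be read against the same shares of all features. Of 10 vascular smooth muscle markers, 1 was at or below the array median. Their mean log2 signal over the list ran from 7.76 to 7.83 in the mild line, 7.68 to 7.84 in its littermates, 7.86 to 7.98 in the severe line and 7.78 to 7.83 in its littermates. In the mild line, where Acta2 fell, 1 of 10 passed, Synpo2, which was higher by 0.32 (adjusted p = 0.0138). In the severe line, where Acta2 rose, 2 of 10 were higher, Myl9 by 0.91 (adjusted p = 4.19e-05) and Tagln by 0.70 (adjusted p = 6.28e-05), both of the contractile apparatus of smooth muscle. Myh11, smooth muscle myosin, had 0.089 and 0.038, and Smtn -0.14 and -0.071, in the mild and severe lines. The medians of the list were -0.0096 and -0.018. Between the lines 1 of the 10 was higher and 2 were lower in the mild line, against 0.596% and 0.771% of all features. Between the littermates 0 passed, and 2 were lower in the mild line's family at an unadjusted p under 0.05 (limma, 9.97% of features in either direction).

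Of 10 markers of fibroblasts and myofibroblasts, which also make Acta2, none passed in the mild line with limma (4 higher and 1 lower at an unadjusted p under 0.05, median 0.15) and Col1a1 rose by 0.48 in the severe line (adjusted p = 0.0114, list median 0.17, 4 higher at an unadjusted p under 0.05). Postn, Thbs4 and Cthrc1, which mark activated fibroblasts, were at or below the array median. The mean of the list ran from 8.34 to 8.51 in the mild line, 8.45 to 8.49 in the severe line, and 8.24 to 8.34 in wild type hearts. Of 6 pericyte markers, Cspg4 rose (0.59 and 0.47 in the mild and severe lines) and Abcc9 fell (-0.44 and -0.30). The part of any of these cells in the Acta2 values was not tested.

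Beside Acta1, 12 genes of skeletal muscle were measured, 6 of them at or below the array median, among them Myh1, Myh4 and Actn3. In the mild line Mybpc2 (0.82, adjusted p = 3.75e-04) and Pvalb (0.65, adjusted p = 2.13e-05) were higher and Tnni2 (-0.59, adjusted p = 0.0164) and Atp2a1 (-0.35, adjusted p = 0.0414) were lower. In the severe line Tnni2 was lower (-0.53, adjusted p = 0.0351) and the others did not pass. The list mean ran from 6.70 to 6.78 in the mild line, 6.63 to 6.65 in the severe line and 6.61 to 6.68 in wild type hearts. The part of skeletal muscle in the Acta1 values was not tested beyond these levels. Of 8 cardiomyocyte markers, Ryr2, the calcium release channel of the sarcoplasmic reticulum, fell in both lines (-1.11 and -0.49) and Myl7, the atrial light chain, fell in the mild line (-1.84, adjusted p = 2.15e-07), while Actn2 rose there by 0.27 (adjusted p = 0.0420). The mean of the cardiomyocyte list ran from 12.94 to 12.98 in mild line hearts, below all wild type hearts (13.09 to 13.30), and from 13.04 to 13.15 in severe line hearts. The median change of the 8 genes was -0.0025 in the mild and -0.13 in the severe line, and the mean in the mild line includes the large falls of Myl7 and Ryr2. Between the wild type families 1 of the 8 passed, higher in the mild line's littermates, against 0.0616% of all features. In the difference of changes 2 of the 8 passed with a negative sign, against 0.207% of features. The part of this list in the actin values was not tested. In 6 endothelial, 4 macrophage and 3 red blood cell genes none passed in either line with limma (at an unadjusted p under 0.05 there were 0, 1 and 1 in mild line hearts, and 1, 1 and 0 in severe line hearts). The red blood cell genes had median changes of 0.37 and 0.54 against wild type, and of 0.88 in the mild and 0.19 in the severe line against own littermates.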

How the data were processed

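Total RNA of 12 whole hearts was measured on Illumina MouseWG-6 v2.0 BeadChips. For each array the authors deposited an unscaled bead intensity per probe ID, without detection p-values. The submitters' processing notes name GenomeStudio and limma, without versions. A second deposited table, used as an alternative, has the authors' log2 values, background corrected and quantile normalized by them. No column belonged to a sample outside the series.

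Of 45281 probe IDs, 34885 had 1 gene symbol in the platform annotation, 18 several and 10378 none. Those that never differed in value on any array were merged to 30854 features, and 6 lines without an ID in 3 arrays were left out. Background correction (normexp, offset 50), quantile normalization and log2 transformation were done with limma 3.58.1 in R 4.3.3, followed by linear models of group means with eBayes and a Benjamini-Hochberg adjustment over all features. The design had 3 group means (wild type, mild line, severe line) for the comparisons with wild type and between the lines, and 4 (littermates apart) for those with littermates. P-values rest on the spread of hearts around their group means, pooled over the groups of a fit and moderated by eBayes. Precision is limited by the number of arrays. With 3 group means the wild type hearts of both families form a single group, so that spread includes any difference between the families. For Acta2 in the mild line, the standard error was 0.126 against wild type (3 group means) and 0.094 against littermates (4 group means).

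The 5 actin genes, the gene lists and the naming rule were chosen with earlier results of these data known. Named were every member, up to 4 genes of a list with an adjusted p under 0.05 in either line and the largest changes, and the 5 genes closest to a member that passed in a line. Further genes of a list were named after their values were seen: Tmod1, Srf, Setd3, Actr3, Myh11, Smtn, Myh1, Myh4, Actn3, Postn, Thbs4 and Cthrc1. A gene was represented by its brightest feature. The lists were other actins, folding, turnover, capping and length, crosslinking, actin-responsive transcription, and markers of cardiomyocytes, vascular smooth muscle, pericytes, fibroblasts, endothelium, skeletal muscle, macrophages and red blood cells. Promoter windows came from RefSeq (GRCm38.p6) and were matched by symbol for 3 of 5 genes. Alternatives were no background correction, an offset of 16, median scaling, the authors' table, a filter on dim features, array weights, averaged features, own littermates, a block by replicate number, other variance priors, fewer arrays in the fit, unmerged IDs and leaving out each array.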

Additional observations from a re-analysis of the deposited data

Results flagged for a closer look

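The change of Acta2 from own littermates differed between the lines by -0.69 log2 units (limma adjusted p = 0.0295, 3 hearts in each of 4 groups), with all 3 mild line hearts below and all 3 severe line hearts above their littermates. Of all features, 8.52% lay wholly below the littermates in the mild line and 7.44% wholly above them in the severe line. The Acta2 difference was marked because the test of that difference itself passed, and the call was lost in 13 of 22 alternative settings.

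Actg2 was marked in the 6 wild type hearts because replicate 1 of the mild line's littermates, at 7.63, stood apart from the next heart, with a gap of 0.627 of the group's whole range against a critical value of 0.625. Chance marks about 1 in 20 groups in this way, and the gap was just over the limit.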

How the results depend on the processing

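Over 24 settings Acta1 kept its call in both lines, at 1.33 to 1.47 in the mild line (adjusted p = 1.05e-09 to 9.84e-07) and 0.98 to 1.23 in the severe line (adjusted p = 2.82e-08 to 1.48e-05), and no result changed direction past a threshold. Acta2 kept its call between the lines in 23 settings, at -1.27 to -0.60. For changes that follow, the cause was not tested unless the setting uses fewer arrays or more IDs by construction.

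With an offset of 16, counts of passing features were 618 in the mild line, 496 in the severe line, 169 between the lines, 0 between littermates and 38 for the difference of changes, and Acta2 lost its call in the mild line (-0.56, adjusted p = 0.0725) and in the difference of changes (-0.70, adjusted p = 0.262). With each probe ID counted the counts were 2070, 1961 and 725, and 135 for the difference of changes. Median scaling gave 17 features between littermates and 50 for the difference of changes, with Acta2 at 0.45 in the severe line (adjusted p = 0.0546) and -0.61 in the difference (adjusted p = 0.223). With averaged features 14 passed between littermates and Acta2 had -0.36 in the difference (adjusted p = 0.206). With only the arrays of the comparison 1 passed between littermates. With own littermates 721 passed in the mild line, and Acta2 had -0.32 (adjusted p = 0.111).

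Replicate numbers did not pair the hearts, since the correlations of same-numbered deviations were between -0.066 and 0.097 (mild line) and between -0.36 and 0.013 (severe line). With the replicate block and own littermates, 622 features passed in the mild and 534 in the severe line, and Acta2 had -0.32 (adjusted p = 0.152), 0.38 (adjusted p = 0.0710) and -0.69 in the difference (adjusted p = 0.0619). The block changed no other call of an actin gene. It could not be fitted between the lines or between the littermates, and the difference of changes needs all arrays.

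Leaving out each heart gave 624 to 1071 passing features in the mild line, 489 to 1090 in the severe line, 195 to 485 between the lines, 2 to 33 between littermates and 59 to 85 for the difference of changes. Acta2 ran from -0.62 to -0.50 in the mild line, 0.50 to 0.72 in the severe line, -0.51 to -0.44 between littermates and -0.80 to -0.57 in the difference. Its littermate difference, unchanged at -0.48, passed at an adjusted p of 0.0388 without severe line replicate 2 and of 0.0268 without replicate 3. Actb in the severe line ran from 0.16 to 0.62, the latter without replicate 2.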
